A study of Homo sapiens with 60 samples.

Results

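Messages of the NF-kB pathway and of its inflammatory target genes were followed in MDA-MB-231 cells treated with the compound BAY2506856. The set was given as a list of 33 gene symbols, matched by name to the 38342 gene names of the deposited table, and every symbol was found (IL8 is written CXCL8 there). It holds 5 Rel subunits, 5 inhibitors and atypical inhibitors, 8 feedback and signalling adaptors, 12 cytokines, chemokines and growth factors, and 3 other target genes. MDA-MB-231 is an established human breast cancer line that lacks oestrogen and progesterone receptors. Poly(A) RNA was sequenced from cells given BAY2506856 at 100, 300 or 1000 nM, or the vehicle DMSO, and labelled 1, 3, 6 or 24 h, with 3 libraries for each dose and time and 6 DMSO libraries at each time, 60 in all. The series' design text names the 24 h harvest alone, and the times used here are those of the sample labels. All groups are cells of this 1 line, and the labels name neither the compound's target nor an inflammatory stimulus.

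NF-kB is a family of dimeric transcription factors built from Rel subunits, held in the cytoplasm by inhibitor proteins (the IkB family) until a kinase complex marks those inhibitors for destruction. Many of the genes that NF-kB switches on encode its own brakes, such as the inhibitor NFKBIA and the ubiquitin-editing enzyme TNFAIP3, so that their messages are widely used as readouts of pathway activity. Breast cancer cells of the mesenchymal, triple-negative kind are known for NF-kB activity without added stimulus and for secreting chemokines and colony-stimulating factors.

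The promoters of 4 genes on which the results turn are shown because they carry the 10-letter kappaB consensus, the sequence that Rel dimers bind; 3 belong to genes whose messages were higher at 24 h and 1 to NFKB1, whose message was lower. The sequences are RefSeq windows on GRCh38.p14, from 250 bases before to 50 bases after an annotated start, written in the gene's own direction with the matches on either strand in capitals. The deposited counts were made on hg19, so that these coordinates belong to the sequences and not to the counts.
NFKBIA, chr14:35404700-35404999, minus strand: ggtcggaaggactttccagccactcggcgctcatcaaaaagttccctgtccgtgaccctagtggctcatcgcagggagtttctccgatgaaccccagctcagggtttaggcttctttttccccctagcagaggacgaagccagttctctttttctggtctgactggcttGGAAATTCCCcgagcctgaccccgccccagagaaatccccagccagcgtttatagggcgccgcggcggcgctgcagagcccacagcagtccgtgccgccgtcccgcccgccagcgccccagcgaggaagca
BIRC3, chr11:102317234-102317533, plus strand: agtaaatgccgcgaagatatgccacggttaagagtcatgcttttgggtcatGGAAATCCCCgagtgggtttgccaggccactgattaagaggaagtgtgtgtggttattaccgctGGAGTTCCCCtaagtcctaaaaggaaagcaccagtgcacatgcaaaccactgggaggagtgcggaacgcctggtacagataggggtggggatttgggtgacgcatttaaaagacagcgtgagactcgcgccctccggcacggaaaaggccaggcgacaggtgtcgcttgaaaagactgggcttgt
TNFAIP3, chr6:137867009-137867308, plus strand: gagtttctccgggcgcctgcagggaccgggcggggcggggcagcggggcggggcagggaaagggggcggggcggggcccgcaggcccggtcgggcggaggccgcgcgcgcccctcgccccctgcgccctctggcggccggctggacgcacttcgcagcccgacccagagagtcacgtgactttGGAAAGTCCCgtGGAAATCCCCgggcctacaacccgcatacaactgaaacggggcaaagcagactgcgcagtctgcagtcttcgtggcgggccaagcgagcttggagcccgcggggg
NFKB1, chr4:102501109-102501408, plus strand: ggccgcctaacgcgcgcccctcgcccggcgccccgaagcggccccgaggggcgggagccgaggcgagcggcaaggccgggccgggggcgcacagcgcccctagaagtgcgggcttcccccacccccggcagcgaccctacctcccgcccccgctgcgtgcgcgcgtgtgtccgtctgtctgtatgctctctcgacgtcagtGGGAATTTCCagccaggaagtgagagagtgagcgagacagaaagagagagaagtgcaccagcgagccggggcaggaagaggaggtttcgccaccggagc

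The match in NFKBIA began 81 bases before the start, those in BIRC3 199 and 135 bases before it, those in TNFAIP3 67 and 55 bases before it, and that in NFKB1 49 bases before it. The 3 neighbouring chemokine genes CXCL1, CXCL2 and CXCL3 on chromosome 4 had the same 10 letters at nearly the same distance, 79, 78 and 79 bases before their starts, and their surroundings differed at few positions, as the 40-base excerpts show.
CXCL1: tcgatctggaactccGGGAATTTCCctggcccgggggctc
CXCL2: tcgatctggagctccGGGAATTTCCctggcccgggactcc
CXCL3: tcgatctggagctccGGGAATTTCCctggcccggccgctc

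Of the 33 genes, 28 were in the RefSeq promoter table, with 44 windows. The consensus was found in 16 of these windows (36.4%), against 5.91% of all 35116 windows of the table, and in at least 1 window of 14 of the 28 genes (50%), against 7.09% of all genes. By the call at 1000 nM and 24 h described below, it was found in 6 of 7 genes that were higher, 1 of 2 that were lower, 4 of 12 that were not called and 3 of 7 that were not tested. Many genes of the set were chosen as known NF-kB targets, so that these shares are a description with no test. A match is a run of letters and no measurement of binding, and its absence says only that these letters are not in this window.

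The libraries held 0.475 to 86.5 M counted reads (median 11.2), with 3 libraries under 2 M: replicate 2 of DMSO at 24 h, replicate 2 of 1000 nM at 3 h and replicate 2 of 300 nM at 24 h. By their gene levels they formed 3 types for which the labels give no name. A difference of mean log2 levels between 2 sets of pseudogenes, 11 in all, was -2.68 to -1.40 in the 41 libraries of a first type and 2.86 to 4.79 in 13 of a second type. The third type, of 6 libraries, all DMSO at 1 or 3 h, was set apart by the mitochondrial gene MT-ND6, whose level was 56.9 to 105 FPKM there and 0.848 to 5.71 FPKM in libraries of the first type. The sum of 13 mitochondrial messages was 2.841e+04 to 3.455e+04 FPKM in the third type and 1.026e+04 to 2.017e+04 FPKM in the first. With groups in the fit, 14.8% of all genes differed between these types by limma, among them 4 of the set, all higher in the third type: NFKBIZ (log2 difference 0.73 ± 0.11), TNFAIP2 (0.66 ± 0.12), NFKB2 (0.43 ± 0.08) and TNFAIP3 (0.28 ± 0.09). Among the 24 h libraries, replicates 1 and 3 of 1000 nM, replicate 2 of 300 nM and replicate 2 of DMSO were of the second type. Between the second and the first type 73.1% of all genes differed by limma with groups in the fit. Among them were 20 genes of the set, 6 higher and 14 lower in the second type. Second-type libraries were shallower, with a median of 3.22 M reads, against 11.9 M in the first type. Results below for genes of the set are also given within the first type where that ends a call or moves a called value by over 1.5 times. Defining genes of the line were high (VIM at 397 to 642 FPKM), with the exception of SPARC (median 0.244 FPKM), and ESR1 was at 0 in 59 libraries. The lymphocyte gene CD3E was at 0 in all 60 libraries. The sum of 8 leukocyte markers was 4.83 to 7.48 FPKM at 1000 nM and 24 h, 7.04 to 8.28 FPKM at 300 nM and 5.89 to 6.63 FPKM at 100 nM, against 1.17 to 3.99 FPKM in DMSO. CD14 and CSF1R were the 2 of these 8 genes with a median over 1 FPKM (1.63 and 1.02 FPKM over all libraries), and the pan-leukocyte gene PTPRC had a median of 0.0188 FPKM. LYZ had the highest single value of the 8, at 4.31 FPKM (median 0.31 FPKM). At 24 h the mitochondrial sum was 1.6e+04 to 1.79e+04 FPKM at 1000 nM, against 1.14e+04 to 1.49e+04 FPKM in DMSO. The part of either sum in the results below was not tested. The 5 fibroblast markers summed to 0.877 to 1.24 FPKM at 1000 nM and 24 h, against 0.832 to 1.58 FPKM in DMSO.

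In these cells most pathway components were present at moderate levels, while the classic inflammatory cytokines were near the limit of counting. FPKM counts fragments per kilobase of transcript, scaled to the reads of the library, so that levels of different genes can be set side by side. Averaged over 60 libraries, CSF1, the macrophage colony-stimulating factor, was highest at 48.3 FPKM, followed by the ubiquitin ligase BIRC2 (32.9 FPKM), the TNFAIP3 partner TNIP1 (29 FPKM), NFKBIA (27 FPKM) and the transactivating subunit RELA (21.2 FPKM). The ranges of these 5 genes overlapped over libraries of all doses, times and types. The order of the means was not kept in every library. In replicate 3 of DMSO at 1 h BIRC2 was at 47.3 FPKM and CSF1 at 24.6 FPKM. All 5 were read in the same libraries, and their order within libraries was not tested. Among the Rel subunits RELA was followed by NFKB2 (9.7 FPKM), NFKB1 (9.49 FPKM), RELB (7.06 FPKM) and REL (0.47 FPKM). CXCL8, the neutrophil chemokine interleukin-8, averaged 4.66 FPKM, and CSF2, the granulocyte-macrophage colony-stimulating factor, 5.92 FPKM. The cytokine TNF was at 0 in 45 libraries and the chemokine CCL20 in 40, with 28 and 27 reads in total.

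A gene was tested where it reached 1 FPKM in at least 3 libraries, and 25 of the 33 genes passed, as did 15866 of all genes. The 8 that did not were REL, PTGS2, CXCL3, CCL5, IL1B, IL1A, CCL20 and TNF, of which 6 are cytokines or chemokines.

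**Figure D1:**
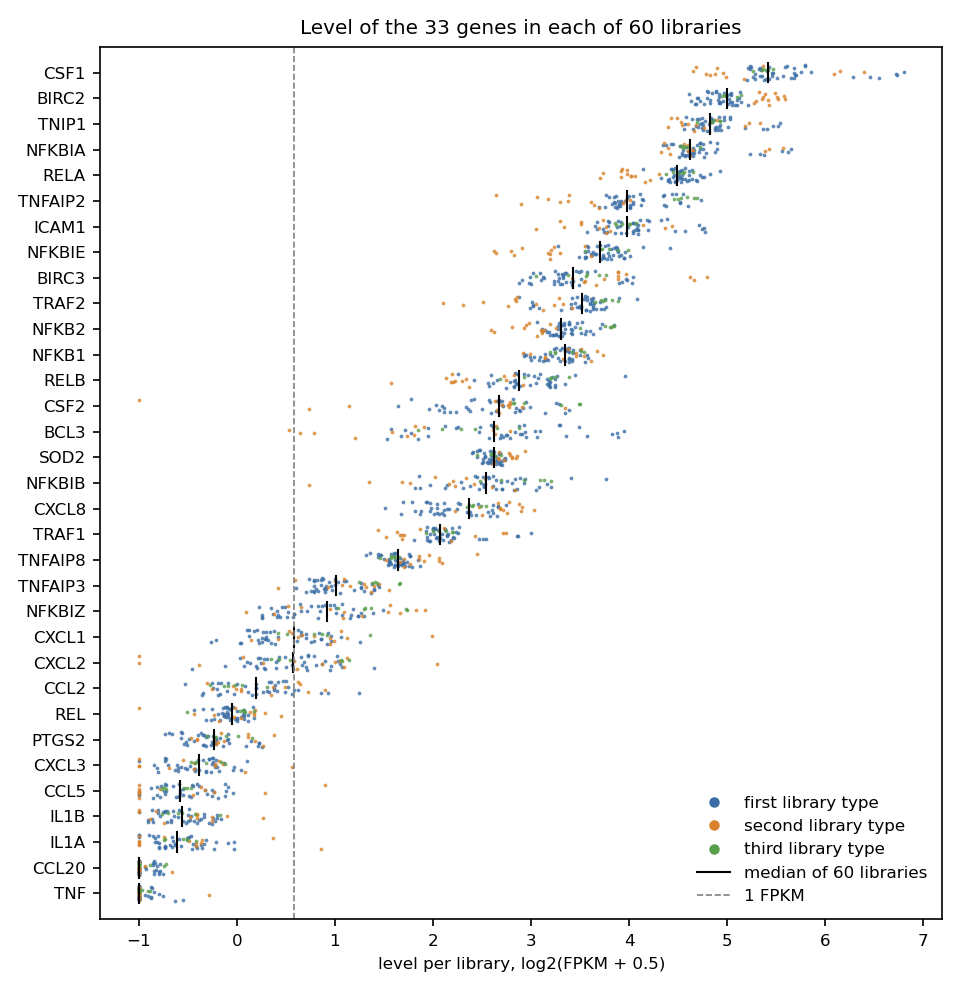
Level of each of the 33 genes in 60 libraries, as log2(FPKM + 0.5) on the horizontal axis; each dot is 1 library, coloured by library type, the black bar is the median and the dashed line marks 1 FPKM. Genes run from CSF1 at the top (mean 48.3 FPKM) to TNF at the bottom (0 in 45 libraries), and dots of the second type lie apart from the others in several rows, such as RELA.

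Differences are reported as log2 changes of FPKM + 0.5, treated minus DMSO of the same time, with the standard error of the fit in limma; a gene was called where the Benjamini-Hochberg adjusted p over 15866 genes was under 0.05. The 3 doses of a time share that time's 6 DMSO libraries, so that their results are not independent of each other. The labels do not say whether replicates were separate cultures, so that p-values measure the spread between these libraries. In such bulk RNA a change in the share of cells making a message and a change per cell cannot be told apart.

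At 1 and 3 h no gene of the set was called by limma at any dose. At 1 h, 0% of all tested genes were called at 100, 300 or 1000 nM, while 809, 192 and 1637 genes had an unadjusted p under 0.05, of which 1, 0 and 2 belonged to the set. At 3 h, the share of all tested genes called was 0.0693% at 100 nM, 0.126% at 300 nM (0.0252% higher) and 0.132% at 1000 nM (0.0252% higher), and 933, 933 and 1176 of the 15866 genes had an unadjusted p under 0.05, of which 3 at each dose belonged to the set. The genes of the set with the smallest unadjusted p at 1000 nM and 3 h were NFKB2 (log2 change -0.48, adjusted p = 0.523) and NFKBIZ (-0.48, adjusted p = 0.529), both far from the threshold. Of the 6 DMSO libraries at 3 h, 3 were of the third type, in which both genes were higher, and within the first type the values were -0.08 for NFKB2 and 0.18 for NFKBIZ (adjusted p = 0.948 and 0.802).

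At 6 h, 2 genes were called at 1000 nM, the inhibitor NFKBIA higher and the subunit gene NFKB1 lower, and each call depended on single libraries. At 1000 nM, 1 of 25 genes was called higher, where 0.706% of all tested genes were, and 1 lower, where 1.3% were (2.01% in either direction). The median log2 change was -0.01 over the 25 genes and 0.00 over all. NFKB1 encodes p105, the precursor of the DNA-binding subunit p50. It was at 7.24, 8.31 and 8.64 FPKM in the 1000 nM libraries, against 9.35, 10.1 and 10.9 FPKM as the lowest, median and highest of DMSO. All 3 treated libraries lay below the 6 DMSO libraries. NFKB1 fell by 0.32 ± 0.08 on the log2 scale (SE, adjusted p = 0.0105), and the call was lost without replicate 1 of 1000 nM (adjusted p = 0.262).

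NFKBIA encodes IkB-alpha, the inhibitor that NF-kB itself induces. At 6 h it was at 29.3, 26.4 and 25.9 FPKM in the 1000 nM libraries, against a lowest, median and highest of 19.8, 21.1 and 25.3 FPKM in DMSO. The treated libraries again lay apart, by a margin smaller than their own range. NFKBIA rose by 0.32 ± 0.09 (log2, SE, adjusted p = 0.0442), a call near the threshold that was lost without each of the 3 treated libraries and without replicate 2, 3, 4 or 6 of DMSO (7 of 9 fits with 1 library left out, adjusted p up to 0.403) but kept within the first type (0.34, adjusted p = 0.00129). At 300 nM, 0 genes of the set were called higher (0.561% of all genes) and 1 lower (1.11%, or 1.67% in either direction), again NFKB1, at 8.35, 7.47 and 8.05 FPKM in treated cells, against the DMSO values above (-0.33 ± 0.08, adjusted p = 0.00747; 0.104 without replicate 2 of 300 nM). At 100 nM, 0 of 25 genes were called by limma (0.863% of all genes), and 3 had an unadjusted p under 0.05, as had 818 of the 15866 genes. Replicate 1 of 300 nM at 6 h, of the second type, had RELA at 12.5 FPKM and CSF1 at 27.8 FPKM, where replicates 2 and 3 had 22.6 and 22.2 FPKM of RELA and 51.3 and 51.4 FPKM of CSF1.

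**Figure D2:**
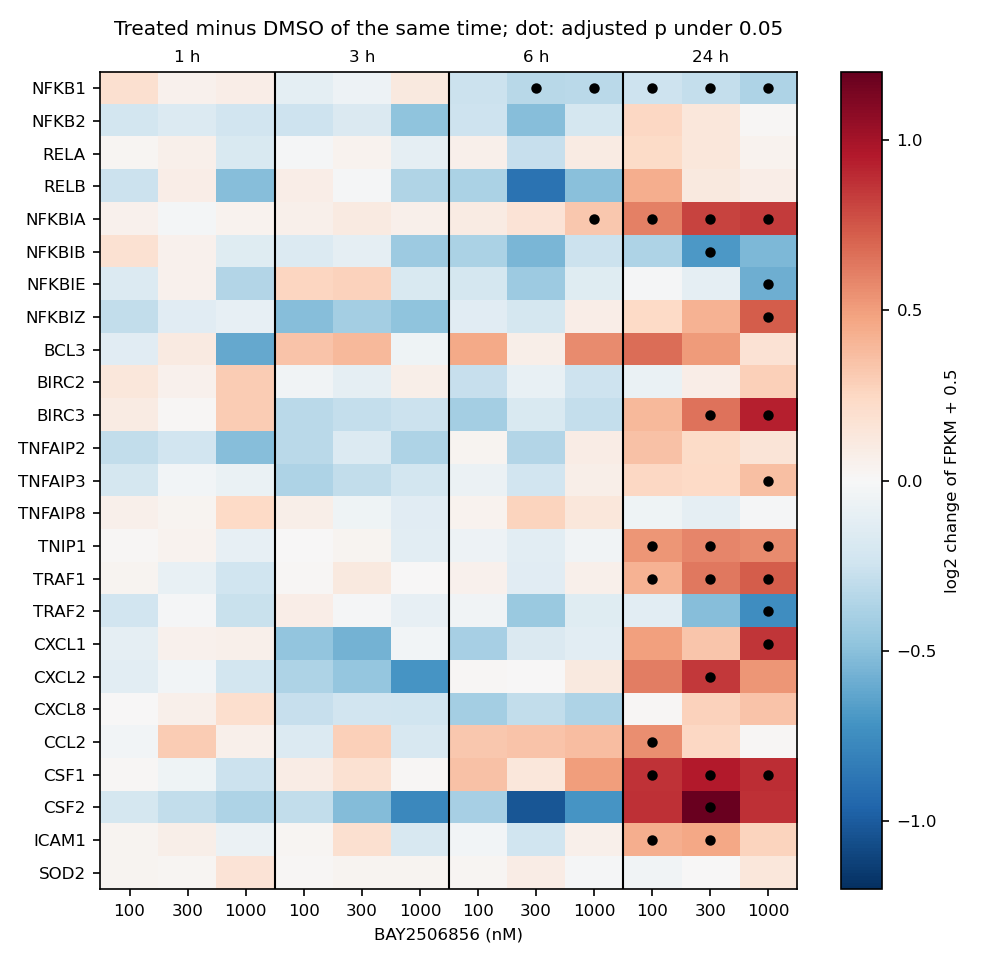
Log2 change of FPKM + 0.5, treated minus DMSO of the same time, for the 25 tested genes (rows) at 100, 300 and 1000 nM within 1, 3, 6 and 24 h (columns), red for higher and blue for lower; a black dot marks an adjusted p under 0.05. No dot stands at 1 or 3 h, 3 stand at 6 h, and at 24 h NFKB1, NFKBIA, TNIP1, TRAF1 and CSF1 carry one at all 3 doses.

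At 24 h messages of the inhibitor NFKBIA, the nuclear cofactor NFKBIZ and the regulators BIRC3, TNFAIP3, TNIP1 and TRAF1 rose at 1000 nM. The secreted factors CXCL1 and CSF1 also rose, and NFKB1, NFKBIE and TRAF2 fell. The falls of NFKBIE and TRAF2 were smaller with library type in the fit. Both genes were lower in second-type than in first-type libraries across all groups (log2 differences -0.63 ± 0.07 and -0.54 ± 0.06). At 1000 nM, 8 of the 25 tested genes were called higher, where 19.1% of all tested genes were, and 3 lower, where 15.6% were. The share called in either direction (11 of 25) stood beside 34.7% of all tested genes. The median log2 change was 0.27 over the 25 genes and 0.03 over all genes tested. At 300 nM, 8 were called higher (16.5% of all genes) and 2 lower (14.2%, or 30.7% in either direction), with medians of 0.25 over the 25 genes and 0.05 over all genes tested. At 100 nM, 6 were called higher (10.5% of all genes) and 1 lower (9.2%, or 19.7% in either direction), with medians of 0.35 over the 25 genes and 0.05 over all genes tested. The split of all called genes moved with the fit at 300 nM, where 53.8% were higher in limma and 40.1% in voom on recovered reads.

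Of the 4 Rel subunit genes tested, 1 was called at each dose at 24 h, NFKB1. Of all tested genes 19.7%, 30.7% and 34.7% were called in either direction at 100, 300 and 1000 nM. NFKB1 was at 7.47, 7.11 and 7.07 FPKM in the 1000 nM libraries, against a lowest, median and highest of 8.92, 9.66 and 9.93 FPKM in DMSO. The groups did not overlap. NFKB1 fell by 0.37 ± 0.08 at 1000 nM (adjusted p = 8.1e-05), and its log2 change was -0.29 ± 0.08 at 300 nM (adjusted p = 0.00226) and -0.25 ± 0.08 at 100 nM (adjusted p = 0.0159). The 100 nM call was lost without replicate 1 or 2 of 100 nM (adjusted p up to 0.122). Within the first type the 1000 nM value was -0.38 (adjusted p = 0.00149).

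The other subunits were not called with all libraries, and RELA differed by library type. RELA averaged 20.8 ± 6.42 FPKM at 1000 nM and 19.8 ± 3.22 FPKM in DMSO (SD, n = 3 and 6), a log2 change of 0.04 ± 0.19 (adjusted p = 0.903). The 1000 nM libraries stood at 19.3, 27.8 and 15.3 FPKM, and the highest of them was the sole one of the first type, above every DMSO library. Across all groups RELA was lower by 0.58 on the log2 scale in second-type than in first-type libraries (-0.58 ± 0.05). With library type in the fit RELA was called higher at 1000 nM (0.33, adjusted p = 0.00359), and likewise within the first type (0.41, adjusted p = 0.015), where 1000 nM is a single library assumed to vary like the other groups. NFKB2, the precursor of p52, and RELB, its partner in the alternative pathway, had log2 changes of 0.01 ± 0.19 and 0.08 ± 0.25 at 1000 nM and were not called.

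Among the 5 genes of inhibitors and atypical inhibitors, 2 were called higher and 1 lower at 1000 nM, where 19.1% and 15.6% of all tested genes were. NFKBIA was at 42.6, 49.7 and 47.1 FPKM in the 1000 nM libraries, against a lowest, median and highest of 20, 26.3 and 29.2 FPKM in DMSO. Every treated library lay above every DMSO library. It rose by 0.84 ± 0.09 (log2, 1.79-fold on the scale of FPKM + 0.5, adjusted p = 9.85e-11). The lower doses gave 48.7, 41.4 and 46.7 FPKM at 300 nM (0.81 ± 0.09, adjusted p = 3.21e-10) and 41, 39.8 and 37.2 FPKM at 100 nM (0.60 ± 0.09, adjusted p = 1.2e-06). The calls held in each of 9 fits per dose with 1 library left out.

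NFKBIZ encodes IkB-zeta, a nuclear cofactor that promotes a subset of NF-kB targets. It was at 3.05, 2.31 and 3.28 FPKM at 1000 nM, against a lowest, median and highest of 1.06, 1.46 and 2.45 FPKM in DMSO. The groups overlapped through 1 DMSO library, replicate 2, the shallowest of the series with 7 reads of this gene. NFKBIZ rose by 0.73 ± 0.19 (adjusted p = 0.00157), and was not called at 300 nM (0.42 ± 0.19, adjusted p = 0.0825) or 100 nM (0.24 ± 0.19, adjusted p = 0.415).

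NFKBIE, encoding IkB-epsilon, was at 6.45, 11.5 and 5.66 FPKM at 1000 nM, against a lowest, median and highest of 9.2, 11.8 and 13.3 FPKM in DMSO. The first-type treated library lay inside the DMSO range, and the low values were the other 2, of the second type. NFKBIE fell by 0.59 ± 0.23 (adjusted p = 0.0398), but the log2 change was -0.02 within the first type (adjusted p = 0.965) and -0.28 with library type in the fit (adjusted p = 0.111), and the call was lost without replicate 1 or 3 of 1000 nM or replicate 1, 3, 5 or 6 of DMSO (adjusted p up to 0.272). NFKBIB, encoding IkB-beta, was called lower at 300 nM alone (-0.69 ± 0.27, adjusted p = 0.0427), with values of 3.42, 1.17 and 3.93 FPKM, against 3.13 to 5.62 FPKM in DMSO. Without replicate 2 of 300 nM, the 1.17 FPKM library, its log2 change was -0.25 (adjusted p = 0.569), within the first type it was -0.31 (adjusted p = 0.33), and the call was also lost without replicate 1, 3, 5 or 6 of DMSO. BCL3, an atypical family member that works with p50 and p52 in the nucleus, was at 6.38, 14.9 and 5.61 FPKM at 1000 nM, against 5.55 to 9.33 FPKM in DMSO (0.17 ± 0.32, adjusted p = 0.721). As for RELA, the high library was of the first type, and within that type BCL3 was called higher (0.95, adjusted p = 0.0114).

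**Figure D3:**
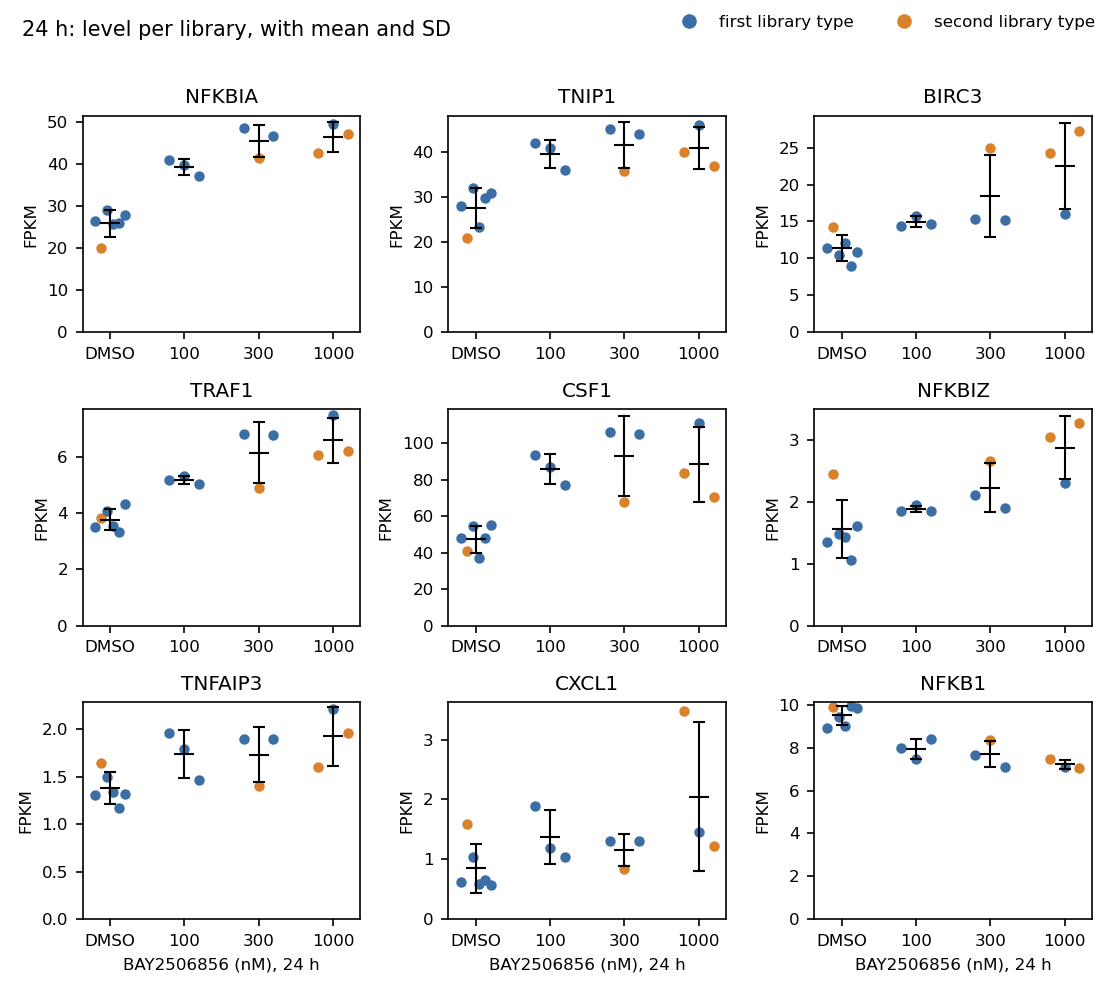
FPKM per library at 24 h for 9 genes, in DMSO and at 100, 300 and 1000 nM from left to right; dots are libraries, coloured by library type, and bars give the mean and SD. NFKBIA, TNIP1, TRAF1 and CSF1 are above all DMSO libraries at each dose, NFKB1 is below them, and the high CXCL1 mean at 1000 nM rests on 1 library at 3.47 FPKM.

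Of the 8 feedback and adaptor genes, 4 were called higher and 1 lower at 1000 nM, where 19.1% and 15.6% of all tested genes were. BIRC3 encodes cIAP2, a ubiquitin ligase of the TNF receptor complex. It was at 24.2, 16 and 27.3 FPKM at 1000 nM, against a lowest, median and highest of 9.01, 11.2 and 14.3 FPKM in DMSO. The groups did not overlap. BIRC3 rose by 0.93 ± 0.17 (1.91-fold, adjusted p = 1.08e-05). It was also called at 300 nM (0.65 ± 0.17, adjusted p = 0.00179; 0.42 and adjusted p = 0.0817 without replicate 2 of 300 nM) and not at 100 nM (0.39 ± 0.17, adjusted p = 0.0904). Second-type libraries had more BIRC3 than first-type ones across all groups (0.45 ± 0.05). Within the first type the log2 change was 0.46 at 100 nM (adjusted p = 4.88e-05), 0.49 at 300 nM (adjusted p = 9.64e-05) and 0.55 at 1000 nM (adjusted p = 0.000675).

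TNIP1 encodes ABIN-1, which guides TNFAIP3 to its substrates. It was at 39.9, 45.9 and 36.8 FPKM at 1000 nM, against a lowest, median and highest of 21, 28.9 and 32.1 FPKM in DMSO, with no overlap. TNIP1 rose by 0.57 ± 0.10 (adjusted p = 9.32e-06), and its log2 changes at 300 and 100 nM were 0.59 ± 0.10 and 0.53 ± 0.10 (adjusted p = 4.95e-06 and 8.68e-05). TRAF1, an adaptor of TNF receptors that NF-kB induces, was at 6.07, 7.49 and 6.19 FPKM at 1000 nM, against a lowest, median and highest of 3.34, 3.7 and 4.31 FPKM in DMSO. Here too the groups did not overlap. TRAF1 rose by 0.73 ± 0.14 at 1000 nM (adjusted p = 2.83e-05), with log2 changes of 0.63 ± 0.14 at 300 nM (adjusted p = 0.000281) and 0.42 ± 0.14 at 100 nM (adjusted p = 0.0253). The 100 nM call was lost without any 1 of its 3 treated libraries (adjusted p up to 0.0951).

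TNFAIP3 encodes A20, the enzyme that removes and edits ubiquitin chains on pathway proteins. It was at 1.6, 2.21 and 1.96 FPKM at 1000 nM, against a lowest, median and highest of 1.17, 1.33 and 1.64 FPKM in DMSO. The lowest treated value lay inside the DMSO range. TNFAIP3 rose by 0.36 ± 0.12 (1.29-fold, adjusted p = 0.0129), a call lost without replicate 2 of 1000 nM (adjusted p = 0.102), and within the first type the log2 change was 0.57 (adjusted p = 0.00119).

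TRAF2, the adaptor that binds the cIAP ligases, was at 3.81, 7.56 and 5.18 FPKM at 1000 nM, against a lowest, median and highest of 6.77, 10.4 and 11.4 FPKM in DMSO. The first-type treated library overlapped the DMSO range. TRAF2 fell by 0.75 ± 0.21 (adjusted p = 0.00333). Within the first type the log2 change was -0.37 (adjusted p = 0.123), with library type in the fit -0.48 (adjusted p = 0.000886), and without replicate 1 of 1000 nM the adjusted p was 0.0841. The remaining 3 genes, BIRC2, TNFAIP2 and TNFAIP8, were not called at any dose at 24 h, with log2 changes at 1000 nM of 0.29 ± 0.15, 0.15 ± 0.31 and -0.01 ± 0.14.

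Of the 6 cytokine, chemokine and growth factor genes tested, 2 were called higher at 1000 nM, where 19.1% of all tested genes were. The median log2 change was 0.70 over the 6 and 0.03 over all genes tested. CXCL2 and CSF2, among these 6, had 0 reads in replicate 2 of DMSO. CSF1, which sustains macrophages, was at 83.9, 111 and 70.6 FPKM at 1000 nM, against a lowest, median and highest of 37, 48 and 54.9 FPKM in DMSO. No treated library overlapped DMSO. CSF1 rose by 0.89 ± 0.18 (1.85-fold, adjusted p = 8.25e-05), with 0.95 ± 0.18 at 300 nM (adjusted p = 3.56e-05) and 0.87 ± 0.18 at 100 nM (adjusted p = 0.000279). Second-type libraries had less CSF1 (-0.50 ± 0.05), and its lowest treated value was of that type.

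CXCL1, a neutrophil chemokine, was at 3.47, 1.45 and 1.22 FPKM at 1000 nM, against a lowest, median and highest of 0.577, 0.64 and 1.59 FPKM in DMSO. The highest treated library stood apart, and these values rest on 4 to 58 reads per treated library and 1 to 17 per DMSO library. CXCL1 rose by 0.86 ± 0.20 (adjusted p = 0.000659), and without replicate 1 of 1000 nM its log2 change was 0.49 (adjusted p = 0.0787). CXCL1, CXCL2 and CXCL3 are close copies of each other, and reads that fit more than 1 of them may have been split or dropped in the deposited counts.

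CSF2 was at 6.28, 6.03 and 6.02 FPKM at 1000 nM, against a lowest, median and highest of 0, 4.79 and 6.55 FPKM in DMSO (0.88 ± 0.39, adjusted p = 0.0796). The DMSO library at 0 was replicate 2, with 0.475 M reads in all. At 300 nM CSF2 was at 7.07, 9.67 and 6.68 FPKM, above every DMSO library, and it rose (1.19 ± 0.39, adjusted p = 0.0169). Without replicate 2 of 300 nM its log2 change was 1.04 (adjusted p = 0.0903), without replicate 2 of DMSO 0.62 (adjusted p = 0.0406), and within the first type 0.47 (adjusted p = 0.0533). CXCL2 also rose at 300 nM (0.85 ± 0.30, adjusted p = 0.0247), at 1.25, 3.62 and 1.57 FPKM, against 0 to 1.53 FPKM in DMSO; the call was lost without replicate 2 of 300 nM (0.48, adjusted p = 0.317), without replicate 2 of DMSO (0.56, adjusted p = 0.0996), within the first type (0.19, adjusted p = 0.547) and in voom (0.23, adjusted p = 0.49). CCL2, the monocyte chemokine, rose at 100 nM alone (0.56 ± 0.18, adjusted p = 0.0171), at 1.88, 1.4 and 1.31 FPKM, against 0.76 to 1.04 FPKM in DMSO, and this call was lost without replicate 1 of 100 nM (adjusted p = 0.158). CXCL8 had log2 changes of 0.34 ± 0.18, 0.28 ± 0.18 and 0.01 ± 0.18 at 1000, 300 and 100 nM and was not called.

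Of the other targets, ICAM1, the leukocyte adhesion molecule, was at 21.1, 25.7 and 17.2 FPKM at 1000 nM, against a lowest, median and highest of 12.8, 17.8 and 20.4 FPKM in DMSO (0.27 ± 0.15, adjusted p = 0.173). It rose at 300 nM (0.46 ± 0.15, adjusted p = 0.0163; lost without replicate 1 or 3 of 300 nM or replicate 2 of DMSO, adjusted p up to 0.0977) and at 100 nM (0.44 ± 0.15, adjusted p = 0.032; lost without replicate 1 or 2 of 100 nM or replicate 2 of DMSO, adjusted p up to 0.197). Second-type libraries had less ICAM1 (-0.46 ± 0.04), and with library type in the fit it was called at 1000 nM too (0.50, adjusted p = 1.76e-07). SOD2, the mitochondrial superoxide dismutase, had log2 changes of 0.14 ± 0.08, 0.00 and -0.04 ± 0.08 at 1000, 300 and 100 nM and was not called.

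The 8 genes below the filter on low values were fitted only without that filter. Among them IL1A, CCL5, CCL20 and PTGS2 were not called at any dose at 24 h. Their log2 changes at 1000 nM were 0.21 ± 0.19, -0.31 ± 0.24, -0.00 ± 0.06 and 0.02 ± 0.15. IL1B, encoding interleukin-1 beta, was at 0.436, 0.368 and 0.255 FPKM at 1000 nM (2 to 35 reads per library), against 0 to 0.215 FPKM in DMSO (0 to 8 reads). The treated libraries were above the DMSO ones, and without the filter the log2 changes were 0.50 ± 0.13 at 1000 nM (adjusted p = 0.00469), 0.71 ± 0.13 at 300 nM (adjusted p = 7.61e-05) and 0.31 ± 0.13 at 100 nM (adjusted p = 0.166). The 1000 nM call was lost without replicate 1 of 1000 nM (0.43, adjusted p = 0.0527) and within the first type (0.48, adjusted p = 0.0927), while the 300 nM call was kept without replicate 2 of 300 nM (0.56, adjusted p = 0.00598). REL, encoding c-Rel, was at 0.719, 0.549 and 0.632 FPKM at 1000 nM, against 0 to 0.624 FPKM in DMSO (0.38 ± 0.15 without the filter, adjusted p = 0.0811). TNF had 0 to 3 reads in the 1000 nM libraries and 0 to 1 in DMSO, and a difference was not detectable at this depth. At 300 nM TNF was at 0.0356, 0.324 and 0.0218 FPKM, against 0 to 0.0471 FPKM in DMSO, and CXCL3 was at 0.355, 0.979 and 0.37 FPKM, against 0 to 0.345 FPKM in DMSO. The high value of each was that of replicate 2, a second-type library of 1.89 M reads, and stood for 1 read of TNF and 4 reads of CXCL3. Both genes were called without the filter (0.27 ± 0.08, adjusted p = 0.0193, and 0.59 ± 0.19, adjusted p = 0.0275), and neither was called without replicate 2 of 300 nM (0.06, adjusted p = 0.885, and 0.33, adjusted p = 0.458). The CXCL3 call was also lost without replicate 1, 2 or 5 of DMSO (adjusted p up to 0.0805).

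**Figure D4:**
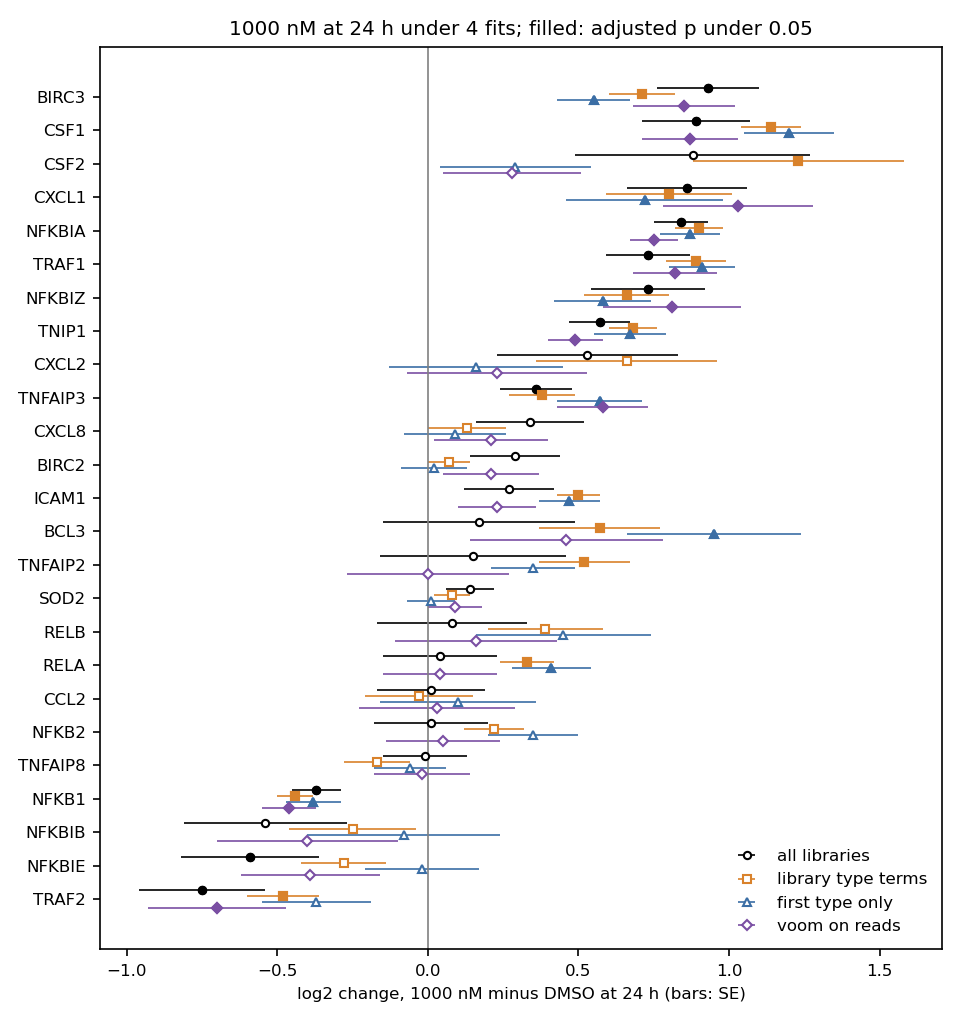
Log2 change at 24 h, 1000 nM minus DMSO, with its SE, for the 25 tested genes under 4 fits: all libraries, library type as a term, first-type libraries alone (1 library at 1000 nM), and voom on the recovered reads; filled symbols have an adjusted p under 0.05. The 4 estimates lie close together for NFKBIA (0.75 to 0.90), TNIP1 and NFKB1, and apart for NFKBIE (-0.59 with all libraries and -0.02 within the first type), BCL3 and CSF2.

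Library type bore on the counts at 24 h. With type as a term, 13 genes of the set were called higher and 2 lower at 1000 nM, where 47.5% of all genes were called; within the first type the counts were 11 and 1, beside 35.9%. NFKBIA, NFKBIZ, BIRC3, TNIP1, TRAF1, TNFAIP3, CXCL1 and CSF1 were called higher in all 4 fits of the plot and NFKB1 lower. BCL3, RELA and ICAM1 were called higher with type as a term and within the first type, and neither with all libraries in limma nor in voom (log2 changes in voom 0.46, 0.04 and 0.23). Of the 11 genes called at 1000 nM, 6 were lower in second-type than in first-type libraries across all groups. These were NFKBIE and TRAF2 (-0.63 ± 0.07 and -0.54 ± 0.06), which fell at 1000 nM, and CSF1 (-0.50 ± 0.05), TRAF1 (-0.33 ± 0.05), TNIP1 (-0.23 ± 0.04) and NFKBIA (-0.13 ± 0.04), which rose. BIRC3 and NFKB1 were higher in the second type (0.45 ± 0.05 and 0.12 ± 0.03). Second-type libraries made up 2 of 3 at 1000 nM and 1 of 6 in DMSO.

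Responses were also set against each other by dose. In the direct comparison of 1000 nM with 100 nM, 0 of 25 genes were called by limma at any time. The share of all tested genes called was 0% at 1 and 3 h, 0.0189% at 6 h (all lower) and 4.94% at 24 h (2.08% higher). At 24 h 8 genes of the set had an unadjusted p under 0.05, as had 3358 of the 15866 genes. BIRC3 had a difference of 0.54 (95% interval 0.15 to 0.93), NFKBIA 0.24 (0.03 to 0.44), CCL2 -0.55 (-0.96 to -0.14) and TRAF2 -0.62 (-1.10 to -0.14). For TNIP1 the interval was -0.19 to 0.28, and for CSF1 -0.39 to 0.44, so that differences of up to that size remain possible. All 100 nM libraries at 24 h were of the first type and 2 of 3 at 1000 nM of the second. Within the first type the difference was 0.09 for BIRC3 (adjusted p = 0.891), 0.34 for NFKBIA (adjusted p = 0.0715), -0.49 for CCL2 (adjusted p = 0.44) and -0.15 for TRAF2 (adjusted p = 0.875).

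The effect of 1000 nM was higher at 24 h than at 6 h for 6 genes. The difference of the 2 effects, 24 h minus 6 h, was called higher for 6 of 25 genes, where 8.16% of all genes were, and lower for 0, where 6.95% were. It was 0.52 ± 0.13 for NFKBIA (adjusted p = 0.00251), 1.22 ± 0.24 for BIRC3 (adjusted p = 0.000129), 0.61 ± 0.14 for TNIP1 (adjusted p = 0.00161) and 0.67 ± 0.19 for TRAF1 (adjusted p = 0.0127). It was 0.99 ± 0.29 for CXCL1 (adjusted p = 0.0129; 0.62 and 0.163 without replicate 1 of 1000 nM at 24 h) and 1.59 ± 0.56 for CSF2 (adjusted p = 0.0445, lost without any 1 of the 6 treated libraries, of replicates 2 to 6 of DMSO at 6 h or of replicate 4 at 24 h, adjusted p up to 0.12). Without replicate 2 of DMSO at 24 h, where no CSF2 read was counted, the CSF2 difference was 1.02 (adjusted p = 0.0236). Within the first type the difference was 1.01 for CSF2 (adjusted p = 0.0159), 0.73 for BIRC3 (adjusted p = 0.000439) and 0.83 for CXCL1, no longer called (adjusted p = 0.0512). BIRC3 shows the pattern: at 6 h it was at 8.24, 8.22 and 7.43 FPKM at 1000 nM, against 7.64 to 14.3 FPKM in DMSO, and at 24 h at 24.2, 16 and 27.3 FPKM, against 9.01 to 14.3 FPKM. For BIRC3 the treated cells were thus at the low end of DMSO at 6 h and above it at 24 h. CSF2 at 6 h was at 2.62 to 3.78 FPKM at 1000 nM, against 5.46 to 6.02 FPKM in DMSO. It was not called there, and part of its difference between the times lies in these lower 6 h values. The median of this difference was 0.29 over the 25 genes and 0.05 over all genes tested. Between 1 and 3 h and between 3 and 6 h the effect of 1000 nM differed for 0 genes of the set (0.0504% and 0.227% of all genes).

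**Figure D5:**
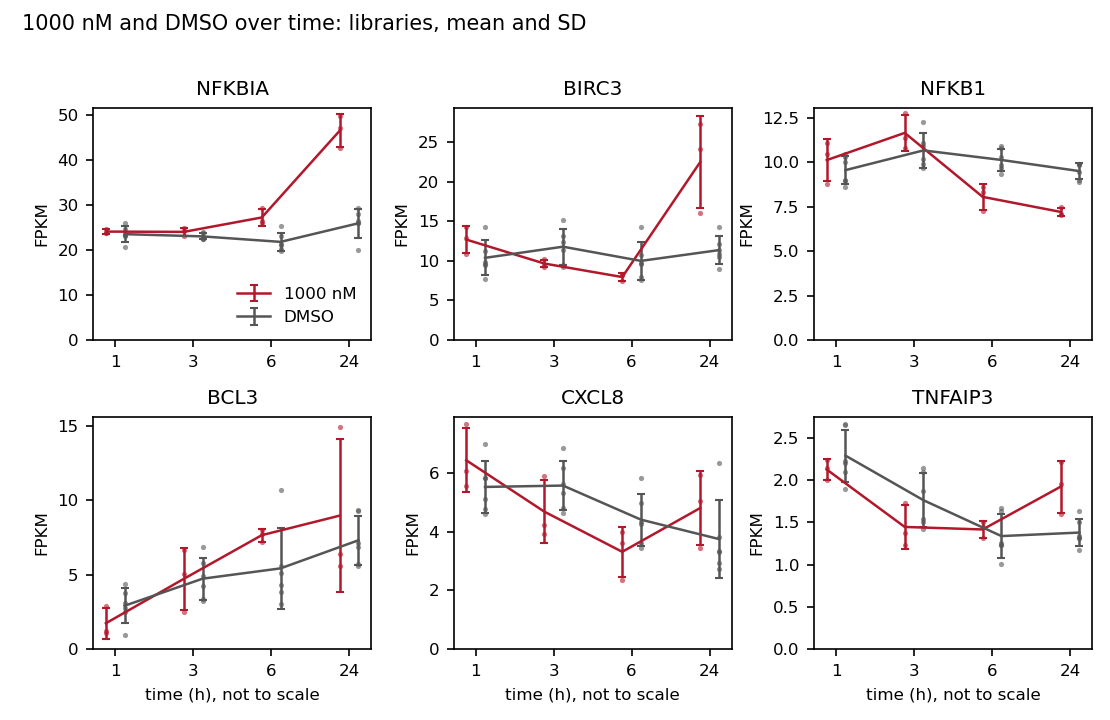
FPKM at 1, 3, 6 and 24 h (axis not to scale) for 6 genes at 1000 nM (red) and in DMSO (grey); dots are libraries, and lines join means with SD bars. NFKBIA and BIRC3 separate from DMSO at 24 h, NFKB1 lies below DMSO at 6 and 24 h, BCL3 is higher in DMSO at 24 h than at 1 h, and CXCL8 and TNFAIP3 are lower there.

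The vehicle cells themselves changed over the day, and each treated group was compared with DMSO of its own time. Comparing DMSO at 24 h with DMSO at 1 h, 1 gene of the set was called higher (9.78% of all genes) and 4 lower (8.45%). BCL3 was at 5.55 to 9.33 FPKM at 24 h (median 6.98), against 0.946 to 4.38 FPKM at 1 h (median 2.94), a rise of 1.26 ± 0.26 (adjusted p = 0.000425). TNFAIP3 was at 1.17 to 1.64 FPKM at 24 h, against 1.9 to 2.67 FPKM at 1 h, and fell by 0.57 ± 0.10 (adjusted p = 1.71e-05). Both pairs of groups were free of overlap.

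Of the cytokine, chemokine and growth factor genes, CSF2, CXCL8 and CXCL1 fell in DMSO over the same span. CSF2 had medians of 4.79 FPKM at 24 h and 9.31 FPKM at 1 h and fell by 1.42 ± 0.32 (adjusted p = 0.00111). Without replicate 2 of DMSO at 24 h its log2 change was -0.85 (adjusted p = 0.00152), and within the first type it was -0.86 (adjusted p = 0.00177). CXCL8 fell by 0.54 ± 0.15 (adjusted p = 0.00785), with medians of 3.32 FPKM at 24 h and 5.47 FPKM at 1 h. CXCL1 fell by 0.48 ± 0.17 (adjusted p = 0.0383), a call lost without replicate 1, 4 or 5 of DMSO at 1 h or replicate 1, 4, 5 or 6 at 24 h (adjusted p up to 0.129) and within the first type (-0.43, adjusted p = 0.118). Of the 6 DMSO libraries at 1 h, 3 were of the third type.

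Comparing DMSO at 24 h with DMSO at 6 h, 3 genes were called higher (4.96% of all genes) and 0 lower (4.38%). CCL2 was at 0.76 to 1.04 FPKM at 24 h, against 0.192 to 0.441 FPKM at 6 h, a rise of 0.71 ± 0.14 (adjusted p = 0.000544). ICAM1 rose by 0.43 ± 0.12 (adjusted p = 0.0193; 0.0581 without replicate 5 of DMSO at 6 h) and NFKBIA by 0.24 ± 0.07 (adjusted p = 0.0262, lost without replicate 2, 3 or 4 of DMSO at 6 h or replicate 3 or 6 at 24 h, up to 0.0706). Between 1 and 3 h and between 3 and 6 h, 0 genes of the set were called in DMSO (0.536% and 0.504% of all genes).

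A wider list of 80 pathway genes outside the set, 45 receptors, adaptors, kinases and regulators and 35 further target genes, was read in the same fit. At 1000 nM and 24 h, where 19.1% of all tested genes were called higher and 15.6% lower, 13 of the 44 upstream genes tested were called higher and 5 lower, with a median log2 change of 0.11, and 9 of the 22 further targets tested were called higher and 6 lower, with a median of 0.22. The genes named are the 5 with the highest and the 5 with the lowest log2 change among those called. The genes named that rose encode an adhesion molecule, secreted or surface ligands and a receptor. The adhesion molecule VCAM1 averaged 6.68 ± 0.798 FPKM at 1000 nM and 3.2 ± 0.28 FPKM in DMSO (SD, n = 3 and 6; log2 change 0.95, adjusted p = 2.65e-08), and the death ligand TNFSF10 (TRAIL) 58.5 ± 10.2 and 30.7 ± 6.66 FPKM (0.93, adjusted p = 1.1e-06). The chemokines CXCL11 and CX3CL1 rose by 1.00 and 0.89 (adjusted p = 0.0029 and 0.00198), and TNFRSF1B, a TNF receptor, by 0.89 (adjusted p = 0.000358).

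Other targets fell more steeply than any gene of the set. GADD45B, a stress-induced survival gene, averaged 2.12 ± 1.56 FPKM at 1000 nM and 10.7 ± 2.6 FPKM in DMSO (-2.23, adjusted p = 4.41e-10), and its log2 changes at 300 and 100 nM were -1.54 and -0.72 (adjusted p = 2.38e-06 and 0.0342). The surface molecule CD83 fell by 1.37 (adjusted p = 3.19e-14) and PLAU, the urokinase plasminogen activator, by 1.09 (adjusted p = 1.03e-13). Among the upstream genes TNFRSF12A, the receptor for TWEAK, averaged 18.4 ± 9.71 FPKM at 1000 nM and 51.2 ± 14.1 FPKM in DMSO (-1.51, adjusted p = 4.51e-05). MAP3K14 encodes the kinase NIK, which drives the alternative pathway and whose protein TRAF2 and the cIAP ligases keep low. The MAP3K14 message fell by 0.90 (limma, adjusted p = 9.45e-05), and its protein was not measured. As above, 2 of the 3 libraries at 1000 nM and 1 of 6 in DMSO were of the second type. The values of these genes outside the set are from the fit of all libraries, and their dependence on library type is not given here.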

How the data were processed

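Libraries were made from poly(A) RNA with a stranded kit and sequenced as single reads, per the labels' protocols. STAR 2.4.2a, featureCounts 1.4.6-p2, DESeq2 and the build hg19 are named in the submitters' processing notes; the annotation and the strand setting of counting are not given in the sources used here, so that reads of antisense neighbours cannot be told apart. The deposited values are log2(FPKM + 1), which were turned back into FPKM; the planned design had assumed FPKM. Whole reads were recovered from the steps of the values: 100% of 1304094 values above 0 came within 0.01 of a whole read, and a simulated recovery returned every read count of 99.99% of the 15866 tested genes and of 94.79% of the 34560 genes with a simulated read, so that the reads of genes below the filter are less certain. Log2(FPKM + 0.5) of genes with at least 1 FPKM in 3 libraries was fitted with limma 3.58.1 (R 4.3.3) over all 16 groups (44 residual degrees of freedom, trend and robust options), with 23 comparisons, each adjusted by Benjamini-Hochberg over 15866 genes. In data simulated for 1000 nM against DMSO at 24 h on 15866 genes, 200 genes were changed by 0.5 or 1 (log2). Limma recovered 57% of genes changed by 0.5 and 91% of those changed by 1, and called 63 of 15666 unchanged genes. Voom recovered 56% and 94% and called 7. Beside at most 200 true calls, 63 false ones are a larger share than the threshold of 0.05 allows. In this simulation limma therefore did not hold its threshold. The changed genes were drawn from genes with a mean level above that of TNFAIP3, NFKBIZ, CXCL1, CXCL2 and CCL2, so that the recovery does not cover genes this low. The simulated reads had a dispersion of 0.01 and no difference between library types. These rates therefore do not cover libraries that differ by type, as those at 24 h do. On the deposited data for 1000 nM against DMSO at 24 h limma called 5506 genes and voom on the recovered reads 5179.

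Alternatives were a pseudocount of 0.1, no filter, median-of-ratios scaling, library type as a term, first-type libraries alone, voom on the reads recovered, omission of the 3 libraries below 2 M reads, and leaving out each library in turn. Library pairs differed by at least 1.53 times counting noise (chi-square per gene), so that none was counted as a repeat. Samples were grouped by their titles. The rule for printing a gene's values by library was a call at 1000 nM or a mean over 50 FPKM; of the other pathway genes, up to 5 highest and 5 lowest called changes are named. The genes, the lists and the tests were chosen with earlier results of these data known. Values by library of further genes, among them RELA, BCL3, CSF2, REL, IL1B, TNF, CXCL3 and genes called at lower doses, were added after they were seen, as were fits without the filter that left out a library or kept the first type alone.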

Additional observations from a re-analysis of the deposited data

Results flagged for a closer look

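In the 4 DMSO groups of 6 libraries, 100 sets of values were searched for a library far from the other 5, and 18 were found; chance alone gives about 1 in 20. In DMSO at 1 h, replicate 3, of the second library type, stood apart for RELA (12.8 FPKM, the others 20.2 to 23), BIRC2 (47.3, the others 30.3 to 33.9), TNFAIP8 (3.67, the others 2.22 to 2.66), TRAF2 (6.7, the others 11.8 to 14.3) and CSF1 (24.6, the others 38 to 42.3). In the same group replicate 1, of the third type, had CXCL1 at 2.07 FPKM, the others 1.07 to 1.39. In DMSO at 3 h, replicate 6, of the second type, stood apart for RELA (14.6 FPKM), NFKBIE (7.02), BIRC2 (41.3), TRAF1 (2.22), TRAF2 (6.67) and CXCL2 (1.68). In DMSO at 24 h, replicate 2, of the second type and with 0.475 M reads, stood apart for NFKBIA (20 FPKM), TNFAIP2 (5.75), TNFAIP8 (4.95), CXCL8 (6.36) and SOD2 (7.18). BCL3 in DMSO at 6 h was the single case in a first-type library, replicate 1 at 10.7 FPKM, the others 3.02 to 5.6.

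The effect of 1000 nM differed between 24 and 6 h by a test of the difference itself, in limma over all genes, for 6 genes. The log2 effect was higher at 24 h by 0.52 for NFKBIA, 1.22 for BIRC3, 0.61 for TNIP1, 0.67 for TRAF1, 0.99 for CXCL1 and 1.59 for CSF2. At 6 h the mean at 1000 nM was below that of DMSO for BIRC3, TNIP1, CXCL1 and CSF2 (3.33 and 5.72 FPKM for CSF2).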

How the results depend on the processing

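Of 45 calls of single genes, 45 stayed called under median-of-ratios scaling, 43 with library type as a term, 42 with a pseudocount of 0.1, 42 with voom, 41 without libraries under 2 M reads, 38 without the filter and 38 within the first type; with 1 library left out a call stayed in 418 cases and was lost in 65, and none of these values changed sign. The cause of the changes was not tested. Counts of genes of the set called moved as follows, the count in the fit of all libraries being given in the report. Counts over all genes moved in several of the same comparisons, as given further below. The counts of the set therefore describe how calls depend on the fit and are no result about the set. With library type as a term, counts were 1 lower at 100 nM, 3 lower at 300 nM, 2 higher at 1000 nM and 2 lower at 1000 nM at 6 h; 13 higher at 1000 nM at 24 h; 2 higher for 1000 against 100 nM at 24 h; 1 lower for the effect at 6 minus 3 h and 12 higher for 24 minus 6 h; and in DMSO 1 higher and 2 lower at 3 against 1 h, 2 lower at 6 against 3 h, 6 higher and 5 lower at 24 against 6 h and 3 higher at 24 against 1 h. Within the first type they were 2 lower at 100 nM, 1 higher and 2 lower at 300 nM, 2 higher at 1000 nM and 2 lower at 1000 nM at 6 h; 11 higher at 100 nM and 1 lower at 1000 nM at 24 h; 1 higher for 1000 against 100 nM at 24 h; 1 lower for 6 minus 3 h and 11 higher for 24 minus 6 h; and in DMSO 1 lower at 3 against 1 h, 1 higher and 1 lower at 6 against 3 h, 5 higher and 5 lower at 24 against 6 h and 2 higher at 24 against 1 h. Without libraries under 2 M reads they were 3 lower at 300 nM and 2 lower at 1000 nM at 6 h, 1 lower at 300 nM and 1 higher for 1000 against 100 nM at 24 h, and in DMSO 1 lower at 24 against 6 h and 3 higher at 24 against 1 h. With voom they were 1 lower at 100 nM and 2 lower at 300 nM at 6 h, and in DMSO 1 higher at 3 against 1 h, 1 lower at 6 against 3 h and 5 higher at 24 against 1 h. Without the filter they were 0 higher at 1000 nM at 6 h and 1 lower at 300 nM at 24 h.

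With 1 library left out, counts ran over 1 to 2 lower at 300 nM and, at 1000 nM and 6 h, 0 to 1 higher and as many lower. At 24 h the ranges were 3 to 7 higher and 0 to 1 lower for 100 nM, 6 to 8 higher and 1 to 3 lower for 300 nM, 7 to 10 higher and 1 to 4 lower for 1000 nM, and 0 to 3 higher and 0 to 2 lower for 1000 against 100 nM. They ran over 0 to 1 lower for the effect at 6 minus 3 h, 4 to 9 higher and 0 to 1 lower for 24 minus 6 h, and in DMSO 2 to 3 higher and 0 to 2 lower at 24 against 6 h and 1 to 2 higher and 3 to 4 lower at 24 against 1 h. Counts over all genes moved by over 1.5 times in several comparisons. At 1000 nM and 6 h 319 were called with all libraries, 738 with library type as a term, 1222 within the first type and 490 without the filter; at 100 nM and 24 h 3122, 4855 with type as a term and 5660 within the first type; for the effect at 24 minus 6 h 2398, 4347 and 3674; and in DMSO at 24 against 6 h 1482, 4162 and 4258. With voom, 36.4% of genes called for the effect at 24 minus 6 h were higher, against 54% in limma, and 68% against 53.1% in DMSO at 24 against 6 h. No paired analysis was possible because the numbers in the titles are serial over all samples and the replicate numbers, given in accession order, only name libraries. Depth limits genes of low level: CXCL1 at 24 h rests on 1 to 142 reads per library.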
